A study of Mus musculus with 8 samples.

Results

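The G2 phase and mitosis genes described here are a list of 36 genes whose products carry a cell from the end of DNA replication through chromosome segregation to cytokinesis. Each gene was represented by its brightest probe set with 1 annotated gene, and 34 of the 36 had one, out of 17097 genes on the array. Ccnb1 and Nuf2 have no probe set named for them in the annotation used here and are named without values. All 34 passed the filter on dim probe sets, under which a probe set must exceed its array's own median on at least 2 arrays. Kif23 passed it through the carcinoma arrays, since it lay above the median on 0 of the 2 GOF and 0 of the 2 control papilloma arrays.

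The data are 8 Affymetrix Mouse Genome PM strip arrays, 2 in each of 4 groups, hybridised with RNA from Epcam-positive mouse skin tumour cells isolated by flow cytometry. The groups are GOF papilloma (NR2F2 overexpression; the driver of the transgene is not given in the sources used here), control papilloma (NR2F2 WT), LOF carcinoma (K5CreER;NR2F2fl/fl, labelled NR2F2 KO, in which CreER is driven by the keratin 5 promoter of basal keratinocytes) and control carcinoma (Cre-negative, NR2F2 WT). NR2F2, also called COUP-TFII, is an orphan nuclear receptor. Papilloma is a benign squamous tumour and squamous cell carcinoma its invasive counterpart. The age of the animals and how the tumours were raised are not given in the sources used here, and nothing states that replicates are different mice. The p-values therefore cover the spread between these arrays, which may be technical.

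The transition from G2 to mitosis is driven by the kinase Cdk1 bound to cyclins A2, B1 and B2, and completed when the anaphase-promoting complex (APC/C) tags cyclins and securin for destruction. Between these steps, Polo and Aurora kinases build the spindle, kinetochores attach chromosomes to it, and the spindle checkpoint holds anaphase until attachment is complete. Most of these genes are transcribed together late in the cell cycle, so that in a tissue or a sorted population their RNA tracks the share of cells in G2 and mitosis. A larger share of such cells and more RNA per cell cannot be told apart in bulk arrays.

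Late cell cycle promoters are known for a pair of short elements, the cell cycle genes homology region (CHR, TTTGAA or TTCGAA) and the CCAAT box, the first bound by DREAM and other MuvB complexes and the second by NF-Y. RefSeq promoters of build GRCm38.p6, from 250 bases before to 50 bases after the start, were at hand for 30 of the 36 genes. On either strand (TTCAAA and ATTGG being the reverse forms), 21 of the 30 held a CHR and 21 held a CCAAT box, or 70% each, and 18 held both (60%). Among all 27025 genes of the promoter table, 21.7% held a CHR, 41.1% a CCAAT box and 8.61% both. The promoters below are those of the mitotic cyclin-dependent kinase, a B-type cyclin, a mitotic kinase, the APC/C activator with the largest difference in GOF papilloma, the checkpoint kinase with the largest difference in LOF carcinoma, and Birc5, which ranked first by p-value in both comparisons. Capitals mark the CHR and CCAAT matches.
Cdk1, chr10:69352863-69353162, minus strand: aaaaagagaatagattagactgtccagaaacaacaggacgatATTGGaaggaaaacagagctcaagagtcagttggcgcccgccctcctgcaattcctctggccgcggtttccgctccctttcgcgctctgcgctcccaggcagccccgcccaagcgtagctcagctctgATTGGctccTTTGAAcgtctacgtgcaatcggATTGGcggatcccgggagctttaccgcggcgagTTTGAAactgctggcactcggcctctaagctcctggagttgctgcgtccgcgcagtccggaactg
Ccnb2, chr9:70421505-70421804, minus strand: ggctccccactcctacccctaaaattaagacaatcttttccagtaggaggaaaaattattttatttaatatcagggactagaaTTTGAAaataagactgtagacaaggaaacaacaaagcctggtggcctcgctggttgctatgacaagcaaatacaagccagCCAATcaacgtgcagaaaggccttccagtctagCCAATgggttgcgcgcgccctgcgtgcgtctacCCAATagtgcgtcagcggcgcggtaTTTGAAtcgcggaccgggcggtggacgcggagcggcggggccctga
Plk1, chr7:122159185-122159484, plus strand: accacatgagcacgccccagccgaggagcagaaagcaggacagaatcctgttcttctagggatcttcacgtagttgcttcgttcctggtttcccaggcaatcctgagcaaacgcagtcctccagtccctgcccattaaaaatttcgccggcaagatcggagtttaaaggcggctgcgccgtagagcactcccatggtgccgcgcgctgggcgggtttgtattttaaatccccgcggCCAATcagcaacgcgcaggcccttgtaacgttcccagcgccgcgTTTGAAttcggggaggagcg
Cdc20, chr4:118437294-118437593, minus strand: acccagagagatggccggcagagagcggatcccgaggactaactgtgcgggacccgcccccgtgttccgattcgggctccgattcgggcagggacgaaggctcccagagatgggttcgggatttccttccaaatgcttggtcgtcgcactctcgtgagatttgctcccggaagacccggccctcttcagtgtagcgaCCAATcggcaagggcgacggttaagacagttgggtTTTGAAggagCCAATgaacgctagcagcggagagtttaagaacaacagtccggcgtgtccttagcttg
Bub1, chr2:127831810-127832109, minus strand: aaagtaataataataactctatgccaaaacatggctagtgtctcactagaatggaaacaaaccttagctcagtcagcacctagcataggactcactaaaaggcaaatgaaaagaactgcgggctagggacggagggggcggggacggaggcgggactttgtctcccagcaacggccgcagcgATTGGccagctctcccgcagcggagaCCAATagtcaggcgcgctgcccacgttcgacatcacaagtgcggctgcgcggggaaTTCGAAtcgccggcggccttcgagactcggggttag
Birc5, chr11:117848987-117849286, plus strand: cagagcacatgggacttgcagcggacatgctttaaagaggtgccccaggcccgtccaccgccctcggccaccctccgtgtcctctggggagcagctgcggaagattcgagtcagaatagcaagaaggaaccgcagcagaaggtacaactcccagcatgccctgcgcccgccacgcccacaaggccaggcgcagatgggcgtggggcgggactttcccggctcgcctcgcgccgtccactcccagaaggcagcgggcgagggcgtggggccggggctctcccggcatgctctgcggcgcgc
In Ccnb2, 3 CCAAT boxes began at -87, -54 and -21 relative to the start, each 33 bases from the next, with a CHR at 4. In Cdk1 the ATTGG form stood at -208, -80 and -48 and the CHR at -71 and -15. Birc5 held neither set of letters in this window. No CHR match overlapped a CCAAT match in the 30 promoters. The CHR matches of the members had a median position of -10, and the CCAAT matches of -69. Members with a CHR had a median log2 difference of 0.57 in GOF papilloma and 0.63 in LOF carcinoma (21 measured genes). Those without one had 0.53 and 0.68 (7 genes). Members with a CCAAT box had 0.64 and 0.69 (20 genes), and those without one 0.48 and 0.49 (8 genes). These splits were not tested.

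Nr2f2 followed the labels. Its log2 RMA value was 11.43 and 11.47 on the GOF arrays, against 2.80 and 2.55 on the control papilloma arrays, where it was below background, at least 321-fold higher. It was 4.77 and 5.0 on the LOF arrays, against 7.93 and 8.14 on the control carcinoma arrays. LOF replicate 1 was below background, so the carcinoma difference (log2 -3.15, SE 0.17) rests on a level measured on 1 of the 2 LOF arrays. The limma fit called both comparisons (adjusted p = 3.81e-06 in papilloma and 0.00444 in carcinoma). Epcam, the sorting antigen, and Krt5 were well above background on all 8 arrays, with Epcam at 9.0 and 8.68 in GOF papilloma, against 10.17 and 10.57 in control papilloma (limma adjusted p = 0.0347). The papilloma and carcinoma columns have different medians (3.12 to 3.16 and 5.08 to 5.15), so no level is compared between the tumour types.

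In GOF papilloma the G2 and mitosis genes stood higher than in control papilloma as a group, by a small step, and none passed the test singly. Of 34 measured members, 33 had a higher mean on the GOF arrays, where 55.0% of all 11934 genes tested did. These genes also shifted together between arrays of 1 group, so they are not independent counts. Control replicate 2 was above control replicate 1 for 32 of the 34 (median step 0.34). GOF replicate 1 was above GOF replicate 2 for 26. The median log2 difference of the members was 0.55, against 0.04 over all genes tested. On 22 members both GOF arrays lay above both control arrays, which held for 29.6% of all genes, and on 0 both lay below (21.8% of all genes). Under limma with Benjamini-Hochberg adjustment over all genes 0 members passed 0.05, where 0.972% of all genes were called higher and 0.570% lower. At an unadjusted limma p under 0.05 there were 12 members higher and 0 lower, beside 11.0% and 6.97% of all genes. A difference of at least 1.5-fold in all 4 array pairs was met by 4 members (Birc5, Cdc20, Ttk and Top2a), all higher, beside 4.60% of all genes higher and 2.59% lower. With 2 arrays against 2, an exact permutation test cannot give a p below 0.333.

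**Figure D1:**
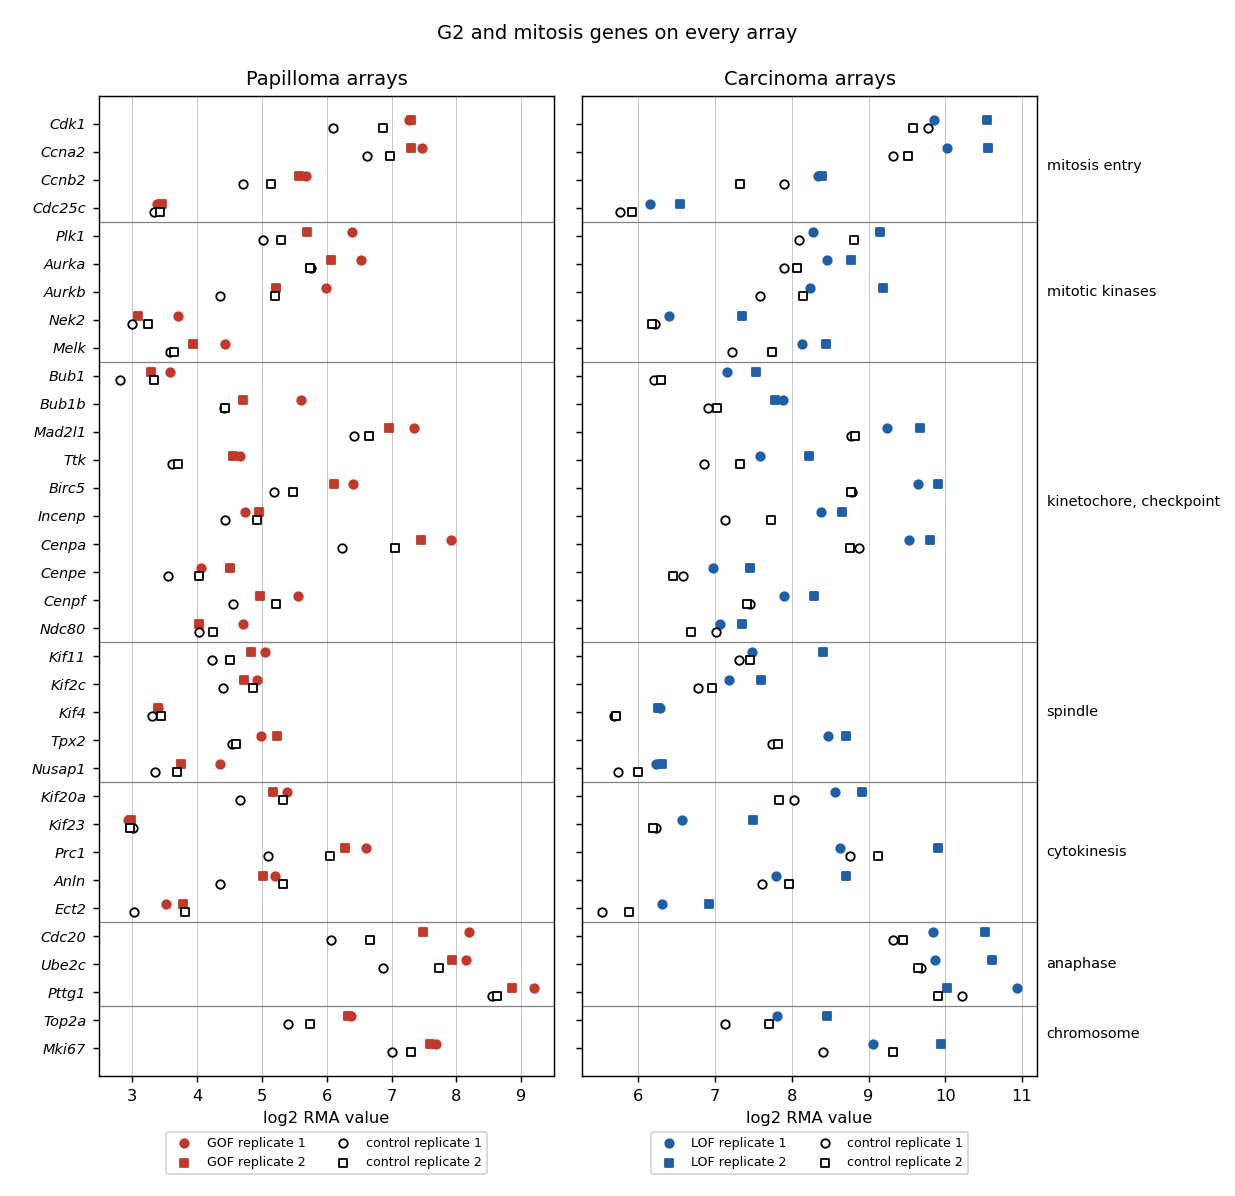
Log2 RMA value (x axis) of each of the 34 measured genes (y axis, grouped by role) on the papilloma arrays (left) and the carcinoma arrays (right). Filled symbols are GOF or LOF arrays and open symbols controls, with circles for replicate 1 and squares for replicate 2. In papilloma 22 genes have both filled symbols to the right of both open ones, and in carcinoma 29 do.

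Among the genes of mitotic entry, Cdk1, the kinase that triggers mitosis, read 7.28 and 7.31 on the GOF arrays, against 6.10 and 6.87 on the control arrays. Both GOF arrays were above both controls, and the control arrays lay further apart than the GOF arrays (log2 difference 0.81, SE 0.31, limma adjusted p = 0.243). Ccnb2, cyclin B2, read 5.68 and 5.58 in GOF papilloma, against 4.71 and 5.13 in control papilloma (log2 difference 0.71, SE 0.24, limma adjusted p = 0.186). Ccna2, cyclin A2, which partners Cdk2 in S phase and Cdk1 in G2, differed by 0.59 (SE 0.23). Cdc25c, the phosphatase that removes the inhibitory phosphates from Cdk1, stood apart from these with 3.38 and 3.45 in GOF papilloma, against 3.33 and 3.43 in control papilloma, a difference of 0.04 (SE 0.18) close to background.

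The mitotic kinases all had higher means in GOF papilloma. Plk1, the Polo kinase that acts from centrosome maturation to cytokinesis, read 6.40 and 5.70, against 5.02 and 5.30 in control papilloma (log2 difference 0.89, SE 0.39, limma adjusted p = 0.293). The groups did not overlap, but the 2 GOF arrays differed from each other by more than the gap between the groups. Aurka, the centrosomal Aurora kinase, differed by 0.55 (SE 0.21) and Melk, a kinase of cycling progenitors, by 0.57 (SE 0.25). For Aurkb, the catalytic subunit of the chromosomal passenger complex, the difference was 0.82 (SE 0.45), with the lower GOF array at 5.21 against the higher control at 5.20. Nek2, which splits centrosomes, overlapped between the groups (0.28, SE 0.34) and was above background on 1 of the 2 GOF and 1 of the 2 control arrays.

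Kinetochore and checkpoint genes held 2 of the 4 members past 1.5-fold in all pairs. Birc5 (survivin), the subunit that targets the chromosomal passenger complex to centromeres, read 6.41 and 6.11 in GOF papilloma, against 5.19 and 5.47 in control papilloma. Its log2 difference of 0.92 (SE 0.19), or 1.9-fold, had the smallest p of the members (limma adjusted p = 0.0668) without passing. Ttk (Mps1), the kinase that switches the checkpoint on at unattached kinetochores, read 4.67 and 4.55, against 3.61 and 3.70 in control papilloma (0.95, SE 0.25, limma adjusted p = 0.119). In both genes the gap between groups was wider than either pair of replicates.

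Cenpa, the histone H3 variant that marks the centromere, read 7.92 and 7.46 in GOF papilloma, against 6.23 and 7.05 in control papilloma (1.05, SE 0.30, limma adjusted p = 0.135). Mad2l1, the checkpoint protein that binds Cdc20, read 7.34 and 6.96, against 6.42 and 6.66 in control papilloma (0.61, SE 0.21, limma adjusted p = 0.202). The groups were apart in both. Bub1b (BubR1), another inhibitor of Cdc20, differed by 0.74 (SE 0.28), carried by GOF replicate 1 at 5.61, since GOF replicate 2 was at 4.72 and the controls at 4.42 and 4.43. The kinetochore motor Cenpe differed by 0.49 (SE 0.26). The groups overlapped for Bub1, the kinase that recruits checkpoint proteins (0.36), for the kinetochore proteins Cenpf (0.38) and Ndc80 (0.23), and for Incenp, the scaffold of the passenger complex (0.16).

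Of the spindle genes, Tpx2, which activates Aurka and nucleates microtubules, read 4.99 and 5.23 in GOF papilloma, against 4.54 and 4.60 in control papilloma (0.54, SE 0.16, limma adjusted p = 0.151), with no overlap. Kif11 (Eg5), the motor that pushes the spindle poles apart, differed by 0.57 (SE 0.30) and Nusap1, a microtubule bundling protein, by 0.53 (SE 0.24), both without overlap. Kif2c, a microtubule depolymerase, overlapped at 0.20 (SE 0.23). The chromokinesin Kif4 was at 3.39 and 3.39 in GOF papilloma, against 3.30 and 3.44 in control papilloma, a difference of 0.02 (SE 0.14) just above background.

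Cytokinesis genes had the smallest median difference of the roles in papilloma, at 0.27. Of the 5, 1 had both GOF arrays above both controls, beside 29.6% of all genes. That gene was Prc1, which bundles the central spindle, at 6.61 and 6.28 in GOF papilloma, against 5.09 and 6.05 in control papilloma (0.87, SE 0.47). Kif20a, a central spindle motor, the actin scaffold Anln and Ect2, which activates RhoA at the cleavage furrow, stood at 0.29, 0.27 and 0.23, and in each the higher control array was above a GOF array. Kif23, the motor of centralspindlin, was below background on all 4 papilloma arrays, so no fold is given. Ect2 was above background on 1 of the 2 control arrays, and the median includes both genes. The difference between cytokinesis genes and the other roles was not tested.

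At the exit from metaphase, Cdc20, the activator of the APC/C, had the largest difference of the members. It read 8.19 and 7.49 in GOF papilloma, against 6.06 and 6.67 in control papilloma, which is 2.78-fold (log2 1.48, SE 0.34, limma adjusted p = 0.0878). Both GOF arrays were well above both controls. Ube2c, the ubiquitin-conjugating enzyme of the APC/C, differed by 0.75 (SE 0.34) and Pttg1, securin, by 0.44 (SE 0.31), both without overlap. Top2a, the topoisomerase that untangles sister chromatids, read 6.38 and 6.33 in GOF papilloma, against 5.41 and 5.74 in control papilloma (0.78, SE 0.29, limma adjusted p = 0.222). Mki67, which encodes the Ki-67 proliferation antigen, read 7.69 and 7.59, against 7.01 and 7.31 in control papilloma (0.49, SE 0.38, limma adjusted p = 0.566). Again the groups were apart in both genes, by a smaller step in Mki67.

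Control replicate 1 and GOF replicate 1 each set part of the size of these differences. Control papilloma replicate 1 was the lowest of the 4 papilloma arrays for 32 of 34 members, and GOF replicate 1 the highest for 25. The mean over the members was 5.63 and 5.37 on the GOF arrays, against 4.75 and 5.15 on the control arrays. Without control replicate 1 the count of members with a higher mean in GOF papilloma was 26 of 34 and the median 0.39, and without GOF replicate 1 it was 31 of 34 and 0.39. Without control replicate 2 the median was 0.71 with 33 higher, and 15 members were at least 1.5-fold higher in all remaining pairs, and without GOF replicate 2 it was 0.68, with 33 and 12.

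Macrophage and endothelial markers had higher means on the GOF arrays for 13 of 13 and 10 of 10 genes tested. Of these, 2 and 5 passed limma's adjusted threshold, beside 0.972% of all genes called higher. Fibroblast markers had higher means for 8 of 8 genes tested, none past that threshold. At an unadjusted limma p under 0.05 there was 1, beside 11.0% of all genes. The 2 tested T cell markers were split, 1 higher and 1 lower. Of 14 macrophage markers, 13 were above background on GOF replicate 1 and 13 on GOF replicate 2, against 5 and 7 on the control arrays, and the mean of the list was 4.97 and 5.96, against 3.19 and 3.09 in control papilloma. Lyz2, the lysozyme gene of myeloid cells, read 7.85 and 8.54, against 2.98 and 2.29 in control papilloma, at least 33.6-fold higher (limma adjusted p = 0.0100). Endothelial markers averaged 5.23 and 5.38 on the GOF arrays, against 3.53 and 3.31 on the control arrays. Between the 2 GOF arrays the order was opposite, as replicate 1 had the lower macrophage mean and the higher mean of the G2 and mitosis genes. The hybridisation spikes, bacterial and phage transcripts added to every sample, had medians of 8.93 and 9.02 on the GOF arrays, against 9.57 and 9.37 on the control arrays. Keratinocyte markers had lower means for 7 of 9 genes, with list means of 10.01 and 10.04 on the GOF arrays, against 10.52 and 10.47 on the control arrays. Immediate early genes that respond to tissue dissociation had lower means for 8 of 10, none past the adjusted threshold. At an unadjusted limma p under 0.05, 5 of the 10 were lower, beside 6.97% of all genes. Among them Atf3 differed by -1.02 (SE 0.18, limma adjusted p = 0.0538) and Junb by -0.85 (SE 0.20, limma adjusted p = 0.0943). The part of these lists and of the spike shift in the result was not tested.

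In LOF carcinoma the same genes also stood higher than in their controls, again without any single gene passing. The step was more even from gene to gene than in papilloma, though not between arrays, as given below. All 34 measured members had a higher mean on the LOF arrays, where 51.9% of all genes tested did. Their median log2 difference was 0.69, against 0.01 over all genes tested. Here too the members shifted together within a group. LOF replicate 2 was above LOF replicate 1 for 31 of the 34 (median step 0.42), and control replicate 2 above control replicate 1 for 22 (median step 0.13). Both LOF arrays lay above both control arrays for 29 members, beside 25.4% of all genes, and below for 0, beside 19.0%. Under limma 0 members passed the adjusted threshold, as did 0% of all genes in the higher direction and 0.0168% in the lower. At an unadjusted limma p under 0.05 there were 19 members higher and 0 lower, beside 8.61% and 5.73% of all genes. At least 1.5-fold in all 4 pairs was met by 6 members (Birc5, Bub1, Bub1b, Incenp, Cenpa and Tpx2), all higher, beside 1.66% of all genes higher and 1.71% lower.

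**Figure D2:**
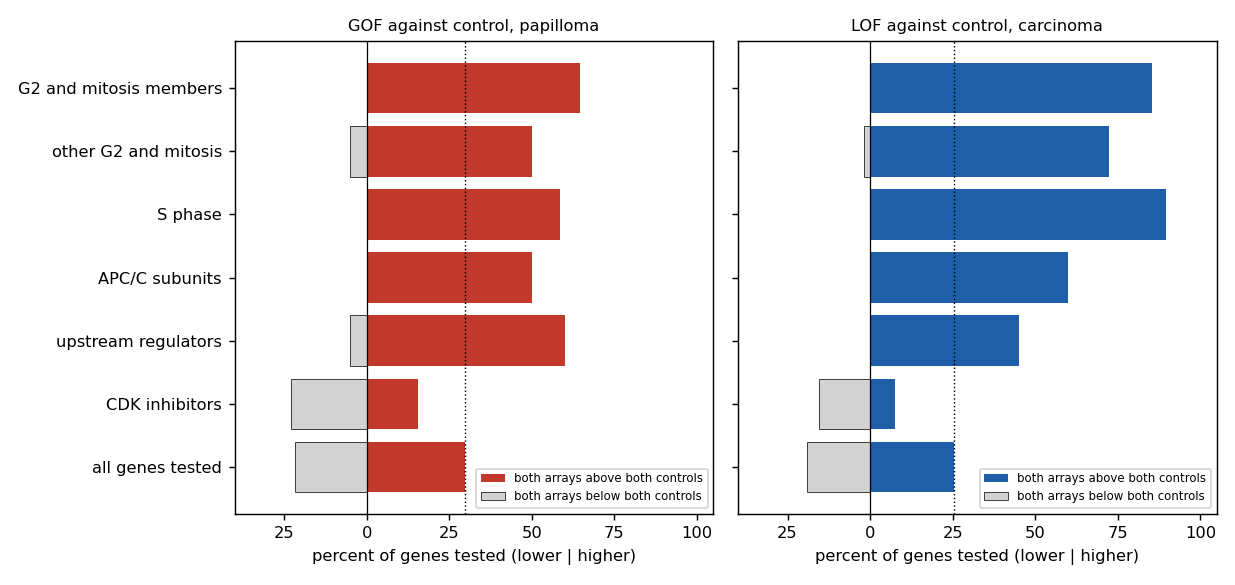
Percent of the genes tested in each list (x axis) for which both GOF or LOF arrays lay above both controls (coloured bars, to the right) or below both (grey bars, to the left), in papilloma (left panel) and carcinoma (right panel). The dotted line is the share over all genes tested in the higher direction, 29.6% and 25.4%; the G2 and mitosis members reach 64.7% and 85.3%.

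Of the genes of mitotic entry, Ccna2 read 10.03 and 10.56 in LOF carcinoma, against 9.32 and 9.52 in control carcinoma (log2 difference 0.88, SE 0.23, limma adjusted p = 0.193). Ccnb2 read 8.35 and 8.39, against 7.90 and 7.33 in control carcinoma (0.75, SE 0.24, limma adjusted p = 0.240). Cdk1 read 9.85 and 10.54, against 9.77 and 9.58 in control carcinoma (0.52, SE 0.31, limma adjusted p = 0.501). No group overlapped in these genes, but for Cdk1 LOF replicate 1 was close to control replicate 1. Cdc25c, which was level in papilloma, differed by 0.51 (SE 0.18), also without overlap.

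The kinases did not all stand apart. Melk read 8.13 and 8.44 in LOF carcinoma, against 7.22 and 7.74 in control carcinoma (0.81, SE 0.25, limma adjusted p = 0.236), and Aurka differed by 0.63 (SE 0.21). Aurkb differed by 0.85 (SE 0.45) and Nek2 by 0.68 (SE 0.34). These 4 genes had no overlap, though the 2 LOF arrays lay far apart for Aurkb and Nek2. Plk1 was the member with the smallest difference in carcinoma, at 8.27 and 9.15 in LOF carcinoma, against 8.09 and 8.81 in control carcinoma (0.26, SE 0.39, limma adjusted p = 0.837), and its groups overlapped.

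The 10 measured kinetochore and checkpoint genes had both LOF arrays above both controls in carcinoma, beside 25.4% of all genes. Their median difference was 0.83. Birc5 read 9.64 and 9.91 in LOF carcinoma, against 8.78 and 8.78 in control carcinoma, 1.99-fold (log2 1.00, SE 0.19, limma adjusted p = 0.134). Bub1 read 7.16 and 7.54, against 6.21 and 6.30 in control carcinoma, 2.14-fold (1.10, SE 0.23, limma adjusted p = 0.146). Incenp read 8.38 and 8.65, against 7.14 and 7.73 in control carcinoma, 2.12-fold (1.08, SE 0.26, limma adjusted p = 0.173). In each, the gap between groups exceeded the spread within both. Bub1b, Cenpa and Ttk differed by 0.87, 0.85 and 0.81, Cenpe by 0.70, Mad2l1 and Cenpf by 0.66 each, and Ndc80 by 0.36.

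Of the spindle genes, Tpx2 read 8.48 and 8.71 in LOF carcinoma, against 7.74 and 7.82 in control carcinoma (0.82, SE 0.16, limma adjusted p = 0.136). Kif4 read 6.28 and 6.25, against 5.69 and 5.71 in control carcinoma (0.57, SE 0.14, limma adjusted p = 0.173). The replicates of Kif4 nearly coincided in both groups. Kif11, Kif2c and Nusap1 differed by 0.56, 0.52 and 0.41, without overlap.

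Cytokinesis genes divided into those apart and those overlapping. Ect2 differed by 0.91 (SE 0.32), Kif23 by 0.82 (SE 0.28) and Kif20a by 0.81 (SE 0.25), with no overlap. For Kif23 the higher LOF array was at 7.49 and the lower at 6.57, against 6.24 and 6.20 in control carcinoma. Prc1 read 8.63 and 9.91, against 8.75 and 9.13 in control carcinoma (0.32, SE 0.47), so that LOF replicate 1 was the lowest of the 4 arrays. Anln overlapped as well, at 0.47 (SE 0.40).

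Cdc20 read 9.83 and 10.52 in LOF carcinoma, against 9.31 and 9.45 in control carcinoma (0.79, SE 0.34, limma adjusted p = 0.351). Ube2c differed by 0.57 (SE 0.34) and, like Cdc20, had no overlap. Pttg1 differed by 0.41 (SE 0.31) and overlapped, and it was 1 of the 3 members highest on LOF replicate 1. Top2a read 7.80 and 8.46, against 7.13 and 7.70 in control carcinoma (0.72, SE 0.29, limma adjusted p = 0.324), and its groups were apart. Mki67 read 9.06 and 9.94, against 8.41 and 9.32 in control carcinoma (0.63, SE 0.38, limma adjusted p = 0.493), and its control replicate 2 was above LOF replicate 1.

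LOF replicate 2 carried the larger part of the difference. It was the highest of the 4 carcinoma arrays for 31 of 34 members, and the mean over the members was 8.12 and 8.60 on the LOF arrays, against 7.60 and 7.75 on the control arrays. Without LOF replicate 2, 32 of 34 members remained higher with a median of 0.46 and 7 at least 1.5-fold higher in both remaining pairs. Without LOF replicate 1 the median was 0.95, with 33 higher and 28 at that fold. Without control replicate 1 it was 0.61, with 33 and 8, and without control replicate 2 it was 0.70, with 34 and 13.

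Macrophage, endothelial and fibroblast markers had lower means in LOF carcinoma for 13 of 13, 10 of 10 and 8 of 8 genes tested, none past limma's adjusted threshold (1, 2 and 0 lower at an unadjusted p under 0.05, beside 5.73% of all genes). The macrophage list averaged 4.99 and 5.30 on the LOF arrays, with 6 and 10 of 14 genes above background, against 5.13 and 6.73 on the control arrays, with 11 and 14. The endothelial list averaged 4.99 and 5.11, against 5.23 and 6.13 in control carcinoma, and the fibroblast list 5.22 and 5.75, against 5.66 and 7.05. Control replicate 2 was the high array in each list. Keratinocyte markers had lower means for 8 of 9 genes and dissociation stress genes for 8 of 10, none past limma's adjusted threshold (0 and 2 lower at an unadjusted p under 0.05). The endothelial mean of control replicate 1 was above those of both LOF arrays, while its macrophage and fibroblast means lay between them. Without control replicate 2 the median difference of the G2 and mitosis genes was 0.70, as given above. Hybridisation spikes had medians of 9.29 and 9.08 on the LOF arrays, against 9.56 and 9.30 on the control arrays, and the part of these lists and of the spike shift in the result was not tested.

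**Figure D3:**
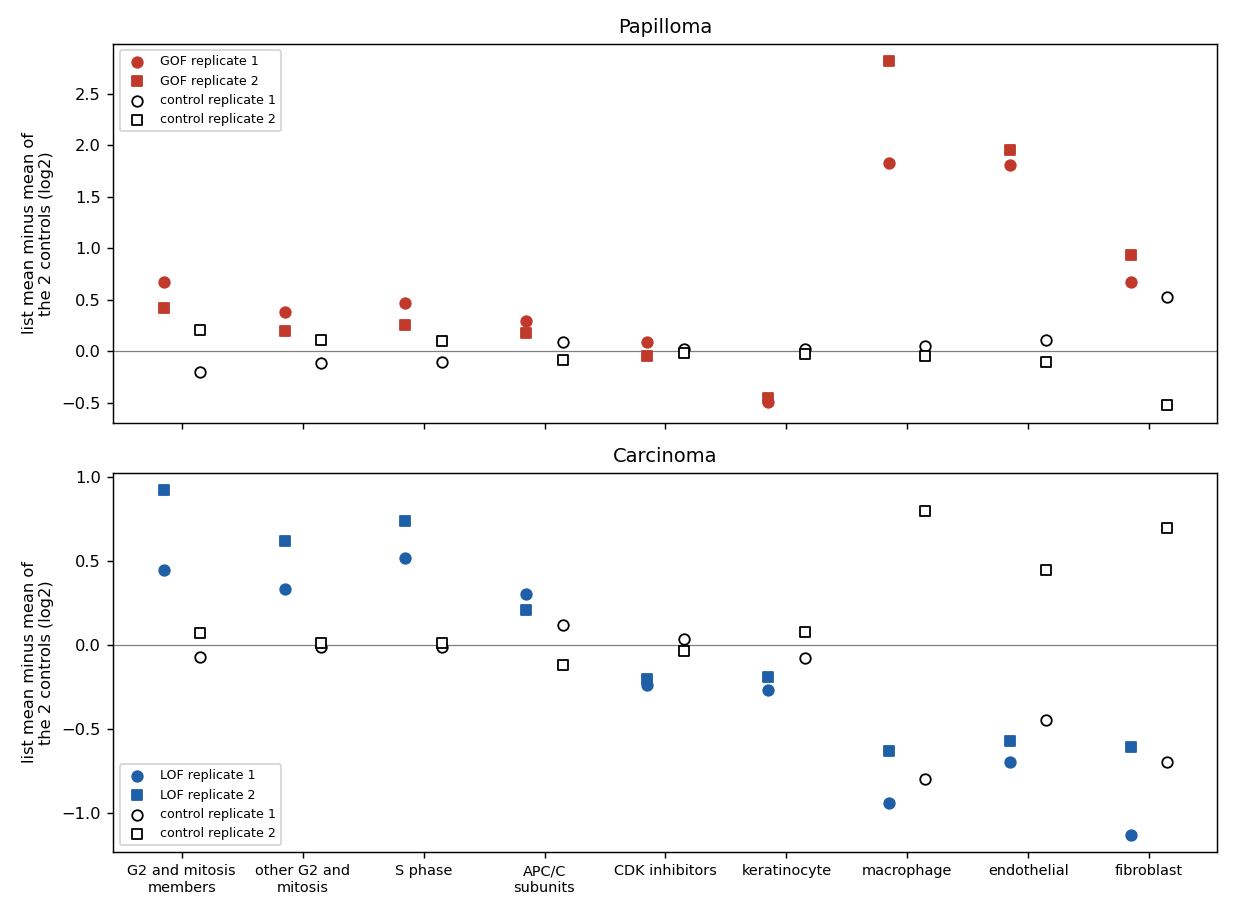
Mean log2 RMA value of each gene list on each array, minus the mean of the 2 controls of the same tumour type (y axis), for papilloma (top) and carcinoma (bottom). Filled symbols are GOF or LOF arrays and open symbols controls, with circles for replicate 1 and squares for replicate 2. The G2 and mitosis members lie above their controls in both panels, while the macrophage, endothelial and fibroblast lists lie higher in GOF papilloma and, against control replicate 2, lower in LOF carcinoma.

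A gain of NR2F2 in papilloma and its loss in carcinoma are opposite manipulations, and the 2 comparisons share no array. The G2 and mitosis genes differed from their controls in the same direction in both: 33 of 34 members had a positive log2 difference in each, beside 29.6% of all genes tested, and 18 were without overlap in both comparisons, beside 8.35%. Across the 34 members the sizes of the differences had a Pearson r of 0.06 (across genes, which share arrays and are not independent replicates). This r includes Kif23, Bub1, Ect2, Nek2, Cdc25c and Kif4, whose papilloma signal was at or near background. It therefore cannot show whether the sizes are related. The limma test of the difference between the GOF and the LOF effect called 0 members, beside 0.344% of all genes, and 2 members had an unadjusted p under 0.05, beside 15.1%. These were Kif4 (-0.54, SE 0.20, limma adjusted p = 0.276) and Incenp (-0.92, SE 0.37, limma adjusted p = 0.318), both with the larger difference in carcinoma. The papilloma level of Kif4 was just above background, which limits the difference that could be measured there. The GOF effect was the larger for 11 members, with Cdc20, Plk1 and Prc1 among them. Since the tumour types have different array scales, a difference in size may also hold a difference in scale, which cannot be told apart here.

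Other genes of the same phase also had higher means, by smaller steps. Of 63 further genes of G2 and mitosis, 58 were tested, and 48 had higher means in GOF papilloma and 54 in LOF carcinoma, with medians of 0.27 and 0.45. None passed limma's adjusted threshold in either, and at an unadjusted p under 0.05 there were 8 in GOF papilloma and 24 in LOF carcinoma in the higher direction, beside 11.0% and 8.61% of all genes. Those with the smallest p in papilloma were the spindle gene Tacc3 (0.82, SE 0.16, limma adjusted p = 0.0644), separase, Espl1 (0.84, SE 0.18, limma adjusted p = 0.0750), and the condensin gene Ncapg (1.02, SE 0.25, limma adjusted p = 0.0981). In carcinoma they were Espl1 (1.13, SE 0.18, limma adjusted p = 0.128), the centromere gene Cenpn (0.94, SE 0.20, limma adjusted p = 0.15) and the spindle gene Ckap2 (1.10, SE 0.26, limma adjusted p = 0.169). Wee1, the kinase that holds Cdk1 inactive, was the 1 gene of the list lower at an unadjusted p under 0.05 in LOF carcinoma (-1.23), and it was named after its values were seen. In GOF papilloma Wee1 differed by -0.34.

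Core subunits of the APC/C had higher means for 9 of 10 genes in GOF papilloma (median 0.17) and 7 of 10 in LOF carcinoma (median 0.33). Both arrays lay above both controls for 5 and 6 of them, beside 29.6% and 25.4% of all genes, and below for 0 in each. None passed limma's adjusted threshold, and 3 were higher at an unadjusted p under 0.05 in each, beside 11.0% and 8.61% of all genes. Replication genes, expressed in the phase before, stood higher as well: 24 of 29 S phase genes were higher in GOF papilloma (median 0.36) and 29 of 29 in LOF carcinoma (median 0.64), none past limma's adjusted threshold, with 10 and 17 higher at an unadjusted p under 0.05, beside the same shares of all genes. In both comparisons the mean of these genes ordered the 4 arrays as the G2 and mitosis genes did.

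Among 20 tested regulators of late cell cycle transcription, 16 were higher in GOF papilloma and 18 in LOF carcinoma, and none passed limma's adjusted threshold (4 and 5 higher at an unadjusted p under 0.05, beside 11.0% and 8.61% of all genes). The atypical E2F gene E2f7, itself a cell cycle target, had the smallest p in both, at 0.96 (SE 0.19, limma adjusted p = 0.0661) in GOF papilloma and 1.03 (SE 0.19, limma adjusted p = 0.131) in LOF carcinoma. Mybl2 (B-Myb), which joins the MuvB core to activate these promoters, read 7.97 and 7.50 in LOF carcinoma, against 5.97 and 6.21 in control carcinoma (1.64, SE 0.34, limma adjusted p = 0.138). In papilloma Mybl2 overlapped between the groups, at 3.82 and 2.96 in GOF papilloma, against 3.11 and 3.69 in control papilloma. It was above background there on 1 of the 2 GOF and 1 of the 2 control arrays, which limits the difference that could be measured.

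Inhibitors of cyclin-dependent kinases and related arrest genes did not share a direction. Of 13 tested, 8 were higher in GOF papilloma and 4 in LOF carcinoma, and none passed limma's adjusted threshold (1 lower at an unadjusted p under 0.05 in each, beside 6.97% and 5.73% of all genes). That gene was Gadd45a in GOF papilloma (-1.13, SE 0.29, limma adjusted p = 0.108) and Cdkn2b, the p15 inhibitor of Cdk4 and Cdk6, in LOF carcinoma, at 8.11 and 7.51, against 9.49 and 9.38 in control carcinoma (-1.63, SE 0.22, limma adjusted p = 0.102). Of the 6 cyclins and kinases of G1, 4 had higher means in GOF papilloma and 5 in LOF carcinoma, none past limma's adjusted threshold. In papilloma 1 was higher and 1 lower at an unadjusted p under 0.05, beside 11.0% and 6.97% of all genes. In carcinoma 0 were, beside 8.61% and 5.73%. The higher one was Cdk2, the kinase of S phase entry, at 5.04 and 4.93 in GOF papilloma, against 3.95 and 4.52 in control papilloma (0.75, SE 0.22, limma adjusted p = 0.141). The lower one, Ccnd2, cyclin D2, read 6.44 and 6.42 in GOF papilloma, against 8.21 and 8.53 in control papilloma (-1.94, SE 0.43, limma adjusted p = 0.0803).

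Probe sets of a member did not all give the same difference. Of the 34 members 18 had several, and of the 25 probe sets not used, 10 were above background on 0 of the 8 arrays. Of those above background on all 4 arrays of the tumour type, 9 of 9 were higher in GOF papilloma and 12 of 12 in LOF carcinoma. Between probe sets with signal on all 4 arrays, the differences of a gene lay over 0.5 apart on the log2 scale in 1 of 8 members in papilloma (Aurkb) and in 1 of 11 in carcinoma (Cenpa), both named after their values were seen. For Aurkb the second probe set gave 1.5 in GOF papilloma and 1.08 in LOF carcinoma, and for Ccna2 it gave 1.01 and 1.09. For Cenpa it gave 0.031 and 0.18, against 1.05 and 0.85 with the probe set used. This second Cenpa probe set was above background on 3 of the 4 papilloma and 4 of the 4 carcinoma arrays. For Bub1 it gave -0.0036 and 0.26 and was below background on all 8 arrays.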

How the data were processed

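Expression was measured on 8 arrays. The values are log2 expression after RMA normalization as deposited, per the labels' protocols. The submitters' processing notes also name affy. No versions are given. Groups came from the sample titles. Of 45141 probe sets, 28898 had 1 gene symbol, 551 several and 15588, beside 104 controls, none; 28689 were matched by Entrez number to RefSeq names. Probe sets with 1 gene covered 17097 genes, the brightest over the 8 arrays standing for each, and 11934 genes passed the filter. This filter on each array's own median replaces one on the median of all values, because the 2 tumour types differ in scale. The test was limma 3.58.1 (lmFit and eBayes, R 4.3.3) with 1 mean per group, 4 residual and 2.93 prior degrees of freedom over the 8 arrays, and Benjamini-Hochberg adjustment over all genes tested. An array's background is the brightest of its 44 unspiked control probe sets against other organisms. A gene not above it on either control array has its fold given as a bound, taken against whichever is higher, background or its signal. The scripts were tested on simulated data. Values are log2 RMA values, differences are GOF or LOF minus control, and the number of arrays limits their precision. All members and the main lists are named, with values on every array for the 8 members with the smallest p in each comparison and for Cdk1, Plk1, Birc5, Top2a and Mki67, and up to 3 genes of each other list by p. The members and lists were chosen with earlier results of these data known. The replicate number as a block, other filters, probe set choices, normalizations and variance priors, and leaving out each array, were tried. Same-numbered arrays share no stated source, so the block was not used.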

Additional observations from a re-analysis of the deposited data

Results flagged for a closer look

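The GOF effect in papilloma and the LOF effect in carcinoma differed by limma's test of that difference in 41 of 11934 genes. Among the genes of the lists used here and Nr2f2, these were Nr2f2 (adjusted p = 5.03e-06), Lyz2 (adjusted p = 0.0256) and the endothelial gene Flt1 (2.14 on the log2 scale, adjusted p = 0.0454). The fitted values were 11.9 for Nr2f2 and 7.18 for Lyz2, but both genes were below background in control papilloma, so these sizes are not exact and are not bounds. Each had a higher mean in GOF papilloma and a lower mean in LOF carcinoma than in its controls. Among the 34 G2 and mitosis genes 0 passed this test, with adjusted p between 0.276 and 0.995, and 2 had an unadjusted p under 0.05.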

How the results depend on the processing

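No G2 or mitosis gene passed limma's adjusted threshold under any alternative run, in either comparison or in their difference. Under median centring and both quantile normalizations, 33 members in papilloma and 34 in carcinoma still had higher means, with medians of 0.47 to 0.56 and 0.67 to 0.74. With the replicate number as a block, the genes past it over the whole table numbered 39 in papilloma, against 184 without the block, and 0 in carcinoma, against 2, and no member was called. Without a filter 115 were called in papilloma. In carcinoma the count was 0 with its 4 arrays fitted alone or with the mean of probe sets, and 6 with a trended, robust prior. Leaving out each array gave 2 to 308 genes in papilloma and 0 to 125 in carcinoma. Members at least 1.5-fold higher in all pairs numbered 2 in papilloma with the mean of probe sets or either quantile normalization, and 3 in carcinoma with the mean of probe sets, and leaving out each array gave 4 to 15 and 6 to 28. The median difference over members ran from 0.46 to 0.95 in carcinoma when each array was left out. In papilloma 9 members turned sign under some alternative. With each array left out, the range was -0.015 to 0.090 for Cdc25c, -0.031 to 0.60 for Nek2, -0.084 to 0.41 for Incenp, -0.10 to 0.57 for Ndc80, -0.039 to 0.43 for Kif2c, -0.046 to 0.094 for Kif4, -0.039 to 0.62 for Kif20a, -0.22 to 0.75 for Anln and -0.16 to 0.62 for Ect2, and Nek2 was -0.077 without probe sets of shared sequence. In carcinoma it was -0.18 to 0.70 for Plk1, -0.32 to 0.97 for Prc1 and -0.052 to 0.86 for Pttg1. Control papilloma replicate 1, GOF replicate 1, LOF replicates 1 and 2 and control carcinoma replicate 1 were the arrays concerned. The cause was not tested. Of 506 values of single members in each comparison, 496 in papilloma and 502 in carcinoma kept their direction. Deviations of same-numbered arrays from their group means correlated at -0.0034 in papilloma and 0.12 in carcinoma over all genes tested, and at 0.022 and 0.46 over the members. Signal at or near background limits the papilloma differences of Kif23, Nek2, Bub1, Ect2, Cdc25c and Kif4.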
